A study of Drosophila melanogaster with 4 samples.

Results

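The genes described here are 9 histone deacetylases and co-repressor partners other than Rpd3: HDAC3, HDAC4, HDAC6, Sirt1, Sirt2, Sirt6, Sin3A, CoRest and Su(var)3-3. They were chosen by name, with earlier results of these data known, out of 16580 genes in the deposited transcript table. The question was whether the RNA of other deacetylases or of their partners moved when Piwi, Mi-2 or Rpd3 was targeted. The level of a gene is the sum of its transcripts in FPKM (mapped reads divided by transcript length in kilobases and by library size). All 9 were measured in all 4 libraries, and all 9 passed the filter of a mean of at least 1 FPKM that 7813 genes passed.

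OSCs are a line of ovarian somatic cells of Drosophila melanogaster in which the Piwi-piRNA pathway silences transposable elements. They received siRNA duplexes against EGFP as the control (siGFP) or against the mRNA of piwi (sipiwi), of Mi-2 (siMi-2) or of Rpd3 (siRpd3). After 4 days their poly(A) RNA was sequenced. There is 1 library per condition, so that no difference has a replicate check and no test between conditions was made. The 3 comparisons share the siGFP library, and in bulk RNA fewer cells of a type and less RNA per cell cannot be told apart.

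Histone deacetylases remove acetyl groups from lysines, and those of the Rpd3/HDAC class use zinc, whereas sirtuins use NAD+. Rpd3 (HDAC1) acts in several complexes: with the scaffold Sin3A, with CoRest and the histone demethylase Su(var)3-3 (LSD1 in mammals), and with the remodelling ATPase Mi-2 in dNuRD. HDAC3 is the catalytic subunit of a separate complex built on Smr (SMRT/NCoR in mammals), and HDAC6 is best known as a cytoplasmic tubulin deacetylase.

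The libraries held between 32638866 and 38060116 mapped reads, recovered from the steps between FPKM values. Targeted piwi RNA stood at 38.9 FPKM in sipiwi against 73.5 in siGFP, and targeted Mi-2 RNA at 5.67 FPKM in siMi-2 against 34.4. Rpd3 is listed as HDAC1, and its RNA had 71.3 FPKM in siGFP, 54.7 in siMi-2, 109 in sipiwi and 104 in the siRpd3-labelled library. The targeted RNA was thus not lower as deposited under that label, and every direction drawn from that library carries this limit. The study reports western blots, Rpd3 included, among its checks of RNAi efficiency in OSCs, which read protein and not RNA. The median gene had a log2 ratio to siGFP of 0.29 in sipiwi and 0.12 in siMi-2, against 0.71 in the siRpd3-labelled library. The log2 ratio of Rpd3 RNA in the last was 0.54 as deposited and -0.16 relative to that median gene, so that its direction depends on the scaling. The somatic ovarian markers (5 of 5 measured) summed to between 196 and 322 FPKM, and the 4 germ cell markers measured to 2.60 FPKM in siGFP, with 5.79 in sipiwi, 4.85 in the siRpd3-labelled library and 14.0 in siMi-2, where aub made up 8.06 FPKM. The part of these marker differences in the results below was not tested. Of the somatic markers Fas3 was at 1.57 FPKM in siGFP, 4.51 in siMi-2, 9.12 in sipiwi and 49.4 under the siRpd3 label. Its log2 ratio of 4.89 in that library, which also holds all of the calls among the 9 genes, was the highest of the 5. The others there were zfh1 at 1.88, tj at 1.08, piwi at 0.20 and fs(1)Yb at -0.45. In sipiwi the 5 ran from -0.92 for piwi, which is targeted there, to 2.47 for Fas3. The germ cell gene osk had no read in siGFP or siMi-2, which allows up to 0.0285 and 0.0289 FPKM at 3 reads.

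In siGFP the 9 genes spanned 42.7 FPKM for CoRest to 2.65 FPKM for Su(var)3-3, and only 2 pairs of neighbours in the order of levels had overlapping counting intervals. The order was CoRest, HDAC3, Sirt6, HDAC6, Sirt2, HDAC4, Sirt1, Sin3A and Su(var)3-3. HDAC4 could not be placed above Sirt1, nor Sin3A above Su(var)3-3, at this depth. CoRest stood first and Su(var)3-3 last in all 4 libraries as listed. The place of Sin3A differed most: it was last but one in siGFP, sipiwi and siMi-2 but the fourth in the siRpd3-labelled library, level with Sirt6. Intervals of levels are exact 95% Poisson intervals on the recovered reads, and because PCR copies are no independent molecules they describe counting error alone.

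**Figure D1:**
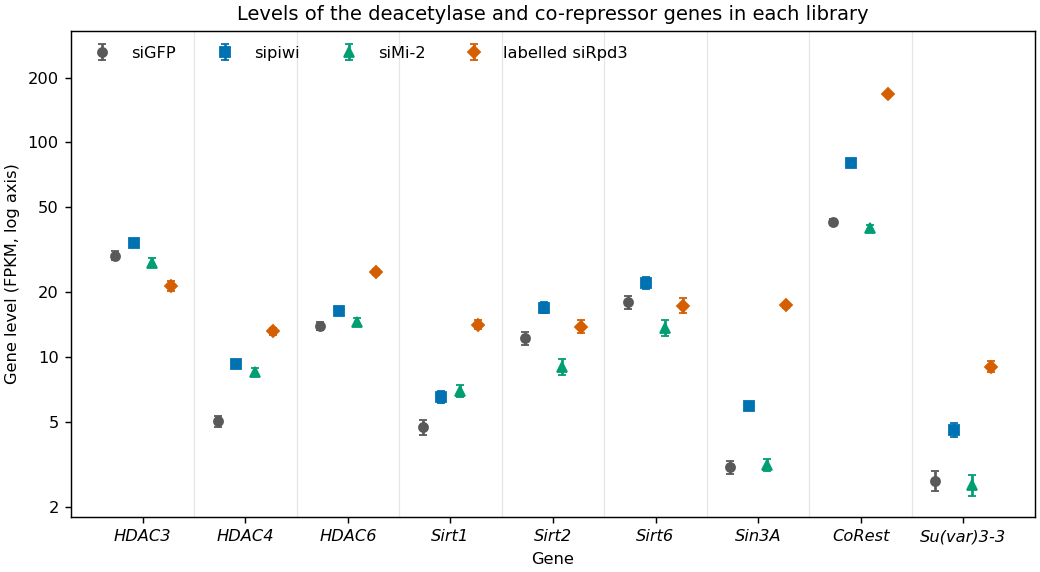
Level of each of the 9 genes in each library, in FPKM on a log axis, with bars for the exact 95% Poisson interval of counting error (1 library per condition). With HDAC3 as listed CoRest is the highest gene in every library. It ranges from 39.9 FPKM in siMi-2 to 168 FPKM in the siRpd3-labelled library, whose Rpd3 RNA was not lower as deposited. Counted with CG45100, HDAC3 RNA would stand above CoRest in siGFP (60.2 FPKM) and siMi-2 (56.5 FPKM).

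HDAC3 lies on chromosome 3R of dm6 from 5472810 to 5474600 on the minus strand, in 3 exons. Its only listed transcript has 1660 nt. All 3 exons are annotated identically for CG45100, a second protein-coding gene annotated on the same RNA. The authors' table lists the RNA under both names, and between 48.7% and 50.5% of its reads fell under HDAC3 in each library. HDAC3 was listed at 29.6 FPKM in siGFP (95% interval 28.3 to 31.0), 34.1 in sipiwi (32.7 to 35.6), 27.5 in siMi-2 (26.2 to 28.9) and 21.4 under the siRpd3 label (20.2 to 22.7). It was the only one of the 9 genes whose lowest level was in that library. The RNA counted under both names was at 60.2, 67.9, 56.5 and 42.4 FPKM in the same order, which stands above CoRest in siGFP and in siMi-2. The place of HDAC3 in the order of levels therefore depends on how this RNA is counted. The log2 ratios to siGFP of HDAC3 as listed were 0.20 in sipiwi, -0.11 in siMi-2 and -0.47 under the siRpd3 label. For the RNA under both names they were 0.17, -0.09 and -0.50.

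HDAC4, a deacetylase that in mammals shuttles between cytoplasm and nucleus and binds MEF2 factors, lies on chromosome X from 13262687 to 13285632 on the minus strand. Its 8 listed transcripts have between 5182 and 6876 nt. Its level was 5.01 FPKM in siGFP (4.72 to 5.31), 9.26 in sipiwi (8.87 to 9.67), 8.52 in siMi-2 (8.13 to 8.91) and 13.2 under the siRpd3 label (12.7 to 13.7). It was thus lowest in siGFP, with no overlap of the intervals with any other library. HDAC4 and Sirt1 were the 2 genes of the 9 that were higher than siGFP by more than counting error in all 3 other libraries. Both stayed higher under the scaling to the median gene. Relative to genes of like length HDAC4 turned to -0.45 in the siRpd3-labelled library and Sirt1 to -0.07 in sipiwi. Sirt1 also shares bases with DnaJ-H, a limit given below.

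HDAC6 lies on chromosome X from 15333310 to 15340360 on the plus strand and has 7 listed transcripts of 3272 to 4483 nt. Its level was 13.9 FPKM in siGFP (13.4 to 14.6), 16.4 in sipiwi (15.8 to 17.1), 14.6 in siMi-2 (14.0 to 15.2) and 24.9 under the siRpd3 label (24.0 to 25.7). The siGFP and siMi-2 intervals overlapped. An antisense RNA, asRNA:CR44998, covers 21.1% of the exonic bases of HDAC6, and the library kit named in the labels is not stated to keep the strand. That RNA had between 13 and 51 reads per library, against between 2053 and 3233 for HDAC6.

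The sirtuin Sirt1, the fly counterpart of yeast Sir2, lies on chromosome 2L from 13165564 to 13169551 on the plus strand, with 1 listed transcript of 3809 nt. It was at 4.70 FPKM in siGFP (4.35 to 5.07), 6.49 in sipiwi (6.08 to 6.92), 6.97 in siMi-2 (6.53 to 7.42) and 14.1 under the siRpd3 label (13.5 to 14.8). As with HDAC4, siGFP held the lowest level and its interval overlapped no other. DnaJ-H, a co-chaperone gene on the opposite strand, overlaps 13.4% of the exonic bases of Sirt1, and reads in the overlap cannot be assigned to one strand. DnaJ-H was at 37.0, 47.6, 40.2 and 51.3 FPKM in the same order, so that it too was lowest in siGFP. It had between 2311 and 3092 reads per library, against between 657 and 1757 for Sirt1. How much of the Sirt1 levels and ratios comes from the overlap was not tested.

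Sirt2, whose mammalian counterpart deacetylates tubulin and histones, lies on chromosome 3R from 20328465 to 20330915 on the plus strand, with transcripts of 1399 and 2285 nt. Its level was 12.2 FPKM in siGFP (11.4 to 13.1), 17.0 in sipiwi (16.0 to 18.0), 8.96 in siMi-2 (8.24 to 9.74) and 13.8 under the siRpd3 label (12.9 to 14.8). Sirt6, a chromatin-bound sirtuin in mammals, lies on chromosome 3R from 10255349 to 10261849 on the minus strand, with a transcript of 1114 nt. It was at 18.0 FPKM in siGFP (16.7 to 19.3), 22.1 in sipiwi (20.7 to 23.6), 13.6 in siMi-2 (12.5 to 14.8) and 17.3 under the siRpd3 label (16.0 to 18.7). Both short sirtuin genes were lowest in siMi-2 and highest in sipiwi, and the siMi-2 intervals overlapped none of the others. For both genes the siGFP interval overlapped that of the siRpd3-labelled library.

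Sin3A, the scaffold that holds Rpd3 in Sin3 co-repressor complexes, lies on chromosome 2R from 12575240 to 12592917 on the minus strand. Its 9 listed transcripts have 6281 to 8130 nt, the longest RNA among the 9 genes. Its level was 3.06 FPKM in siGFP (2.86 to 3.27), 5.91 in sipiwi (5.63 to 6.19), 3.13 in siMi-2 (2.93 to 3.35) and 17.4 under the siRpd3 label (16.9 to 17.9). The siGFP and siMi-2 intervals overlapped, and sipiwi stood between them and the siRpd3-labelled library.

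CoRest links Rpd3 to Su(var)3-3. It lies on chromosome X from 19521929 to 19530896 on the plus strand, with 10 listed transcripts of 1800 to 3998 nt. Its reads numbered 4423 in siGFP, 3955 in siMi-2, 8576 in sipiwi and 15427 under the siRpd3 label, or 42.7 FPKM (41.4 to 43.9), 39.9 (38.6 to 41.1), 80.2 (78.5 to 81.9) and 168 (165 to 171). No intervals overlapped, and siMi-2 was the lowest library.

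Su(var)3-3, the histone demethylase that CoRest binds, lies on chromosome 3L from 20226381 to 20230250 on the plus strand, with 3 transcripts of 3555 to 3681 nt. It was at 2.65 FPKM in siGFP (2.38 to 2.94), 4.58 in sipiwi (4.23 to 4.95), 2.52 in siMi-2 (2.26 to 2.81) and 9.01 under the siRpd3 label (8.48 to 9.57). Its order of libraries was that of CoRest, except that siGFP and siMi-2 could not be separated. The level of CoRest was 16.1 times that of Su(var)3-3 in siGFP, 15.8 times in siMi-2, 17.5 times in sipiwi and 18.6 times under the siRpd3 label, while both genes differed more than 3-fold between libraries.

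With piwi targeted, all 9 genes were higher than in siGFP as deposited, and none passed 2-fold in either direction. Ratios are log2(FPKM + 0.1) differences from siGFP, which understate the change of low genes, and their intervals are exact 95% Clopper-Pearson intervals on the reads of both libraries. Among 7813 genes, 11.4% were above 2-fold and 2.59% below 0.5-fold in sipiwi. The 3 co-repressors and HDAC4 stood highest, with log2 ratios of 0.93 for Sin3A (0.81 to 1.04), 0.91 for CoRest (0.86 to 0.96), 0.88 for HDAC4 (0.77 to 0.98) and 0.77 for Su(var)3-3 (0.58 to 0.96). The other 5 genes lay between 0.20 for HDAC3 and 0.47 for Sirt2. The median of the 9 genes was 0.47 against 0.29 for all genes tested. HDAC3 and HDAC6, at 0.20 and 0.23, fell below the median gene, so that their direction turned when each library was scaled to its median gene (-0.09 and -0.05).

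With Mi-2 targeted, 4 genes were above siGFP and 5 below, and none passed 2-fold, against 15.5% of all genes above 2-fold and 3.49% below 0.5-fold. HDAC4 had a log2 ratio of 0.76 (0.65 to 0.86) and Sirt1 of 0.56 (0.42 to 0.70). Sirt2 was lower at -0.45 (-0.60 to -0.29) and Sirt6 at -0.39 (-0.56 to -0.23). The co-repressors were close to siGFP, with 0.03 for Sin3A (-0.10 to 0.17), -0.07 for Su(var)3-3 (-0.28 to 0.15) and -0.10 for CoRest (-0.16 to -0.04). HDAC6 stood at 0.06 (-0.03 to 0.15). The 2 genes with a value closest to 0, Sin3A and HDAC6, changed sign with the scaling to the median gene. The median of the 9 genes was -0.07 against 0.12 for all genes tested. Rpd3 RNA itself was at -0.38 (-0.44 to -0.32) in siMi-2.

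In the siRpd3-labelled library, with Rpd3 RNA above siGFP as deposited, 5 of the 9 genes were more than 2-fold higher. None was below 0.5-fold. Of all genes tested, 41.3% were above 2-fold and 7.07% below 0.5-fold, and the count of 5 is to be read beside that background. The log2 ratio was 2.47 for Sin3A (2.36 to 2.58, 5.69-fold), 1.97 for CoRest (1.93 to 2.02, 3.94-fold) and 1.73 for Su(var)3-3 (1.56 to 1.91, 3.41-fold). Sirt1 followed at 1.57 (1.44 to 1.70) and HDAC4 at 1.38 (1.28 to 1.48). HDAC6 was at 0.83 (0.75 to 0.91) and Sirt2 at 0.18 (0.03 to 0.32). Sirt6 could not be separated from siGFP, at -0.05 (-0.21 to 0.10), and HDAC3 was lower, at -0.47 (-0.57 to -0.36).

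The scaling decided how many of these genes were called. After dividing every library by the ratio of its median gene, 23.0% of all genes were above 2-fold and 21.7% below 0.5-fold in the siRpd3-labelled library. Of the 9 genes, 3 were then above, the co-repressors Sin3A (1.76), CoRest (1.27) and Su(var)3-3 (1.02), and HDAC3 was below (-1.18). The 3 co-repressors had a median of 1.97 as deposited and the 6 deacetylases a median of 0.50, beside 0.71 for all genes tested. With each library scaled instead to RpL32, a ribosomal protein gene used as a reference in RNA assays, 8 of the 9 genes were above 2-fold, as were 77.3% of all genes.

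**Figure D2:**
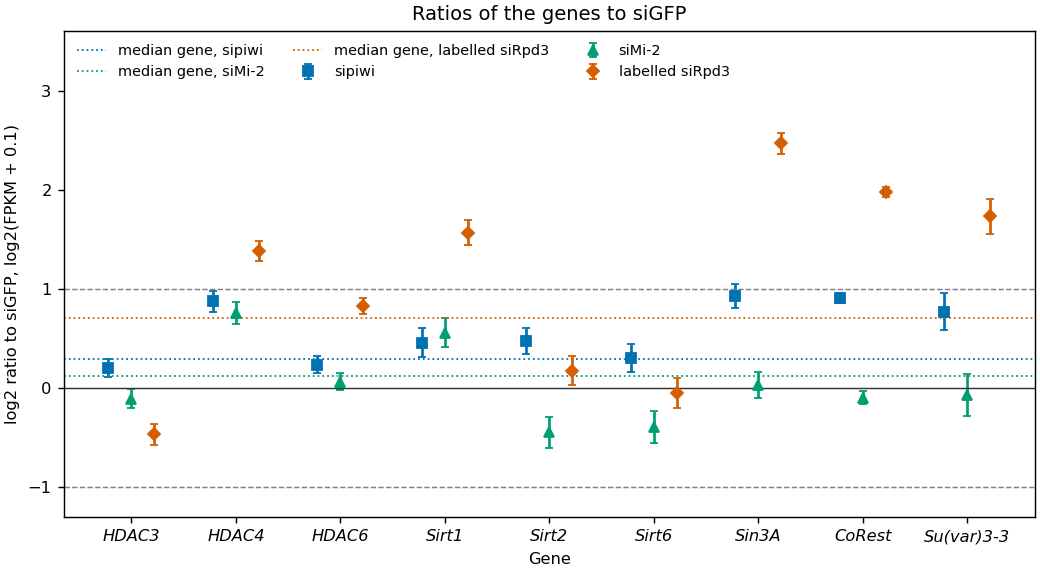
Ratio of each gene to siGFP in the 3 other libraries, as a difference of log2(FPKM + 0.1), with exact 95% Clopper-Pearson intervals of counting error. Dashed lines mark 2-fold, and dotted lines mark the median gene of each library (0.29, 0.12 and 0.71). Only the siRpd3-labelled library, whose Rpd3 RNA was not lower as deposited, has points above 2-fold (5 of 9, beside 41.3% of all genes). HDAC3 is the lowest there at -0.47.

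Transcript length moved with these ratios. Over 7813 genes the Spearman correlation of the ratio with the length of the main transcript, a description across genes of 1 pair of libraries, was 0.27 in sipiwi, 0.06 in siMi-2 and 0.48 under the siRpd3 label. The 9 genes ran from 1114 nt for Sirt6 to 7722 nt for the main transcript of Sin3A. The 3 genes with the shortest RNA (Sirt6, Sirt2 and HDAC3) had the 3 lowest ratios in siMi-2 and in the siRpd3-labelled library. Across the 9 genes the correlation was 0.47, 0.87 and 0.63 in the same order of libraries, over points that share 2 libraries each.

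Each gene was therefore also read against the 200 genes nearest in length of the main transcript. Among genes with several transcripts, the main one held from 11.5% (Sin3A) to 62.7% (Sirt2) of the summed FPKM in siGFP, with 15.6% for CoRest. The transcripts of CoRest run from 1800 to 3998 nt, and how far values relative to length depend on the transcript chosen was not tested. In the siRpd3-labelled library Rpd3 RNA was not lower as deposited, and was at -0.29 relative to its own neighbours. There the neighbours had a median log2 ratio of 2.12 for Sin3A, 1.57 for Sirt1, 1.53 for Su(var)3-3 and 1.21 for CoRest. Relative to them, CoRest remained at 0.77, Sin3A at 0.35 and Su(var)3-3 at 0.21, and Sirt1 equalled its neighbours. HDAC4 turned to -0.45, HDAC6 to -0.82 and HDAC3 was at -0.90. None of the 9 genes passed 2-fold on this scale, against 17.9% of all genes above and 15.8% below. In siMi-2 the same subtraction left Sirt1 at 0.42, HDAC4 at 0.32, Sirt6 at -0.47 and Sirt2 at -0.50. In sipiwi CoRest was highest at 0.40 and HDAC6 lowest at -0.34. Whether length or another property of the libraries sets these values was not tested.

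**Figure D3:**
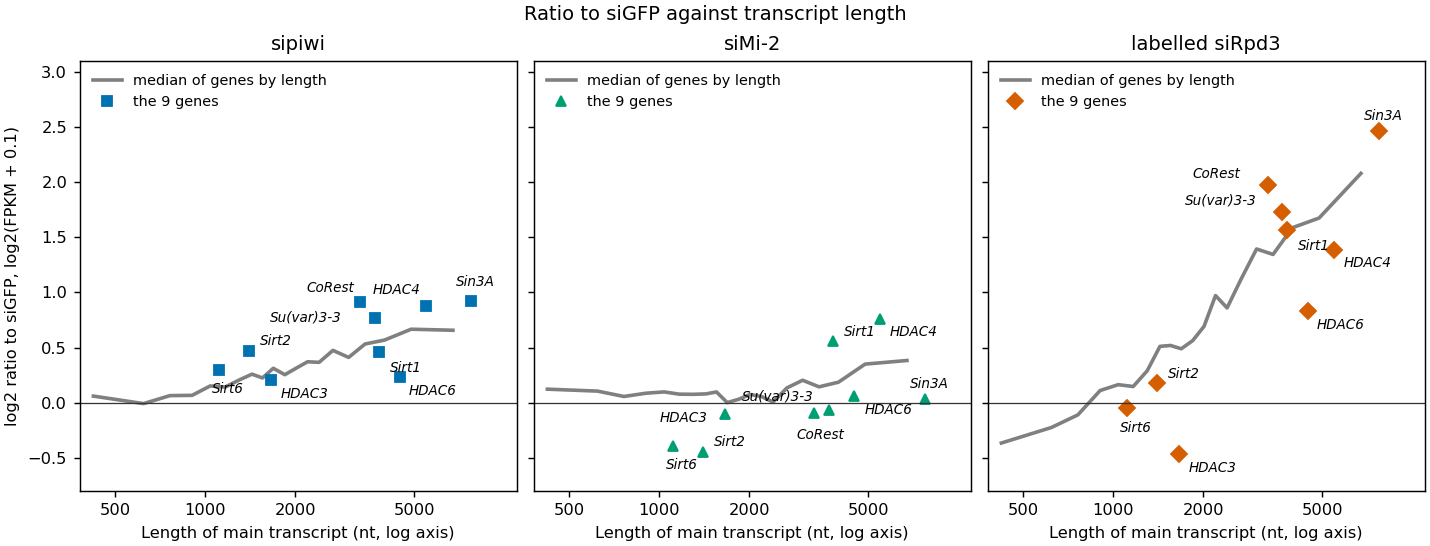
Ratio to siGFP (difference of log2(FPKM + 0.1)) against the length of the main transcript in nt on a log axis. Panels show sipiwi, siMi-2 and the siRpd3-labelled library. Rpd3 RNA in the last was not lower as deposited, and was at -0.29 relative to its 200 nearest genes in length. The grey line joins medians of all tested genes in 20 bins of length, and points are the 9 genes. In the siRpd3-labelled library the grey line climbs with length, CoRest lies 0.77 above its 200 nearest genes in length and HDAC3 0.90 below.

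In the siRpd3-labelled library, where Rpd3 RNA was not lower as deposited, the listed transcripts of a gene had ratios of the same sign. Because transcripts of a gene share bases, this shared sign is in part given by the mapping and is no independent support. Sizes differed within CoRest, where transcripts of 2203 and 1834 nt were at 1.71 (1.56 to 1.85) and 2.43 (2.18 to 2.70). All 9 Sin3A transcripts (2.01 to 2.67), all 10 CoRest transcripts (1.71 to 2.43), all 3 Su(var)3-3 transcripts (up to 1.94) and all 8 HDAC4 transcripts (1.01 to 1.38) were above 2-fold. Of the 7 HDAC6 transcripts 1 was (0.60 to 1.05). Among the main transcripts of all genes tested 40.3% were above 2-fold there, and the share over all transcripts was not computed. Within CoRest, the shortest transcript of 1800 nt had a log2 ratio of 1.74 and the longest of 3998 nt one of 1.95, and within HDAC4 those of 5182 and 6876 nt had 1.27 and 1.01. The Sirt2 transcripts of 1399 and 2285 nt, with 0.07 and 0.33, had overlapping counting intervals. Reads from bases shared by transcripts cannot be assigned to one of them with certainty, so that shares of transcripts are less certain than sums.

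In sipiwi 3 CoRest transcripts, 1 HDAC4 transcript and 1 Sin3A transcript passed 2-fold although no gene did. Among the main transcripts of all genes tested, 10.7% were above 2-fold there. In siMi-2 no transcript of the 9 genes passed 2-fold in either direction, beside 15.0% of main transcripts above and 3.52% below. The HDAC4 transcripts there ranged from 0.37 to 0.99 and were all above siGFP, and both Sirt2 transcripts were below it, at -0.45 and -0.43.

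With HDAC3 as listed, Rpd3 had the highest level of the 7 deacetylases in each library. HDAC1 (Rpd3) made up 46.1% of the summed FPKM of the 7 deacetylases in siGFP, 40.6% in siMi-2, 50.9% in sipiwi and 49.8% under the siRpd3 label, with a standard error from counting of at most 0.49 percentage points. Against the RNA counted under both HDAC3 and CG45100, Rpd3 RNA was at 1.18 times its level in siGFP, 0.97 times in siMi-2, 1.61 times in sipiwi and 2.45 times under the siRpd3 label, so that the order of these 2 RNAs turns in siMi-2. The 6 others summed to 83.5 FPKM ± 1.13 (counting SE) in siGFP, 80.2 ± 1.06 in siMi-2, 105 ± 1.23 in sipiwi and 105 ± 1.22 under the siRpd3 label, or 0.96, 1.26 and 1.25 times siGFP. These sums and shares leave out HDAC11, Sirt4 and Sirt7. Sirt4 was at 32.8 FPKM in siGFP, 40.7 in siMi-2, 27.5 in sipiwi and 16.9 under the siRpd3 label. It stood above HDAC3 as listed in siGFP and siMi-2, so that sums over all deacetylases would differ. The makeup of the 6 differed, while their sum, with HDAC3 as listed, stayed within 1.26 times siGFP. Beside it, the median gene had log2 ratios of 0.29 in sipiwi, 0.12 in siMi-2 and 0.71 under the siRpd3 label. HDAC3 as listed was 19.1% of the 7 in siGFP and 10.3% in the siRpd3-labelled library, where Sirt1 stood at 6.77% against 3.04% and HDAC4 at 6.32% against 3.23%. The 3 co-repressors summed to 48.4 FPKM ± 0.67 in siGFP, 45.5 ± 0.66 in siMi-2, 90.7 ± 0.90 in sipiwi and 194 ± 1.41 under the siRpd3 label. The level of Rpd3 RNA was 23.3 times that of Sin3A in siGFP, 17.5 times in siMi-2, 18.5 times in sipiwi and 5.98 times under the siRpd3 label.

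**Figure D4:**
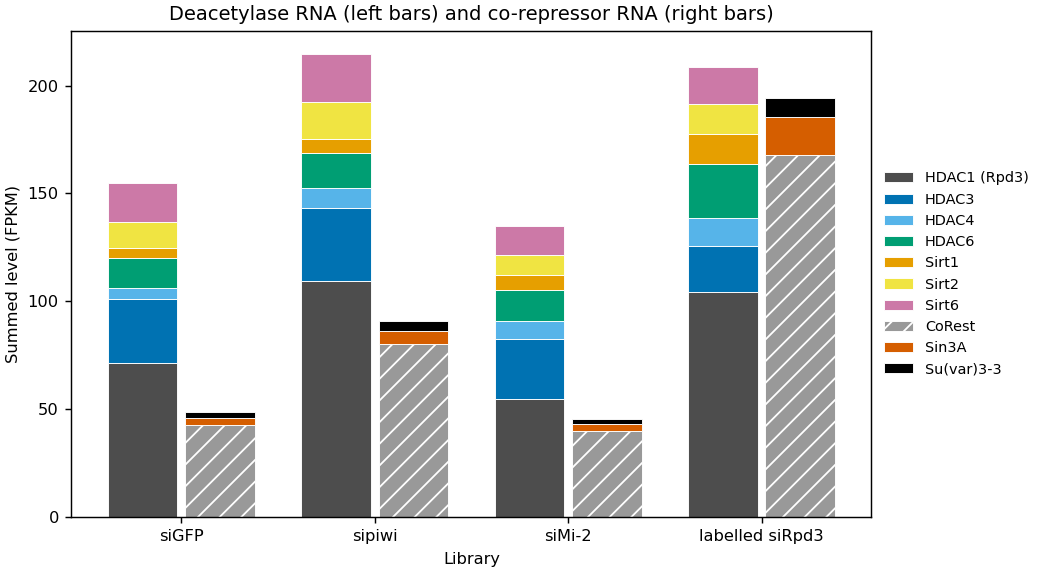
Summed level in FPKM of 7 deacetylase genes, Rpd3 included (left bars), and of 3 co-repressor genes (right bars) in each library, split by gene. With HDAC3 as listed, the 6 deacetylases other than Rpd3 sum to between 80.2 and 105 FPKM. HDAC11, Sirt4 and Sirt7 are left out. The co-repressors range from 45.5 FPKM in siMi-2 to 194 FPKM in the siRpd3-labelled library, whose Rpd3 RNA was not lower as deposited.

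Partners of these genes were read from 7 lists holding 33 genes, all of which were tested. Across the lists 7 genes were above 2-fold and 1 below 0.5-fold in sipiwi, where 11.4% of all genes were above and 2.59% below. In siMi-2 4 were above and 1 below, beside 15.5% of all genes above and 3.49% below. The siRpd3-labelled library had 20 above and 0 below, beside 41.3% above and 7.07% below. Their median log2 ratios were 0.53, 0.17 and 1.32, beside 0.29, 0.12 and 0.71 for all genes tested.

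Of the 3 deacetylases other than Rpd3 outside the 9 genes, HDAC11 was the highest in siMi-2. It had a level of 2.38 FPKM in siGFP, 7.22 in siMi-2, 1.13 in sipiwi and 5.64 under the siRpd3 label, and a log2 ratio of -1.01 in sipiwi (-1.44 to -0.58) and 1.56 in siMi-2 (1.26 to 1.86). It was the only deacetylase tested that passed 2-fold in siMi-2. Sirt7, the lowest of the 3 in siMi-2 at 0.05, was the highest in the siRpd3-labelled library at 1.56, and the mitochondrial sirtuin Sirt4 the lowest there at -0.95.

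In the Sin3 complex list 4 of 9 genes were above 2-fold under the siRpd3 label, a share near the 41.3% of all genes. They ranged from Kdm5, a histone demethylase, at 2.50 to Caf1-55 (p55), a histone-binding partner of Rpd3, at 1.41. The other 5 lay between -0.12 for the chromodomain gene MRG15 and 0.48 for CG7379, which RefSeq lists under the synonym Ing1. None of the 9 passed 2-fold in siMi-2, beside 15.5% of all genes above and 3.49% below. Bin1 (SAP18) was highest there at 0.86 and CG3815, with the synonym Pf1, lowest at -0.35. Their median of 0.48 in the siRpd3-labelled library was below that of all genes. The ratio of the scaffold Sin3A there, 2.47, was exceeded in the list by Kdm5 alone.

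The partners of HDAC3 were both above siGFP under the siRpd3 label, where HDAC3 as deposited was below it. Smr, the scaffold of the HDAC3 complex, was at 1.77 and ebi, its TBL1-like subunit, at 1.32 in the siRpd3-labelled library, where HDAC3 was at -0.47. In siMi-2 Smr was at 0.63 and ebi, like HDAC3, below siGFP at -0.35. In sipiwi HDAC3 (0.20), ebi (0.81) and Smr (1.22) were all above it. The main Smr transcript has 12784 nt and that of ebi 3327 nt, against 1660 nt for HDAC3, and relative to genes of like length the median of the pair was -0.22 under the siRpd3 label, where HDAC3 was at -0.90.

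Among partners of CoRest and Su(var)3-3, 3 of 4 genes were above 2-fold in siMi-2, where CoRest and Su(var)3-3 were close to siGFP and 15.5% of all genes were above 2-fold. They were ova, which links Su(var)3-3 to heterochromatin proteins, at 1.82 (1.64 to 2.02), the zinc-finger repressor ttk at 1.51 (1.30 to 1.72) and chn, another zinc-finger repressor, at 1.22 (1.12 to 1.33). Ratios to siGFP relative to genes of like length left a list median of 1.10. This list was chosen with earlier results of these data known, and chn was described after its values were seen, so that the count is no independent support. The lowest was l(3)mbt at -0.13, and it was also the lowest in the siRpd3-labelled library (0.53), where ttk was highest (2.92). The level of ova was 3.50 FPKM in siGFP, 12.7 in siMi-2, 4.79 in sipiwi and 9.63 under the siRpd3 label.

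Of the DNA-bound co-repressor adaptors, the list of gro, CtBP, sbb and Gug (Atrophin), none passed 2-fold in siMi-2. Beside them, 15.5% of all genes were above there and 3.49% below. Gug was at 0.88 and gro at 0.13 in siMi-2. In the siRpd3-labelled library sbb was highest at 2.93 and gro lowest at 0.67. The acetyltransferases, which add the groups that these enzymes remove, ranged in siMi-2 from -0.78 for Hat1 to 0.62 for nej (CBP/p300). In the siRpd3-labelled library they ran from -0.97 for Gcn5, the acetyltransferase of SAGA, to 2.45 for nej, with 4 of 7 above 2-fold beside 41.3% of all genes. Gcn5 was the lowest of all 33 partner genes there, at 61.7 FPKM against 121 in siGFP. Of the 4 other histone demethylases, Kdm4B was lower in siMi-2 at -1.24 (-1.44 to -1.03) and Kdm4A was highest at 0.44. The same 2 genes were the lowest (-0.09) and the highest (2.31) in the siRpd3-labelled library.

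**Figure D5:**
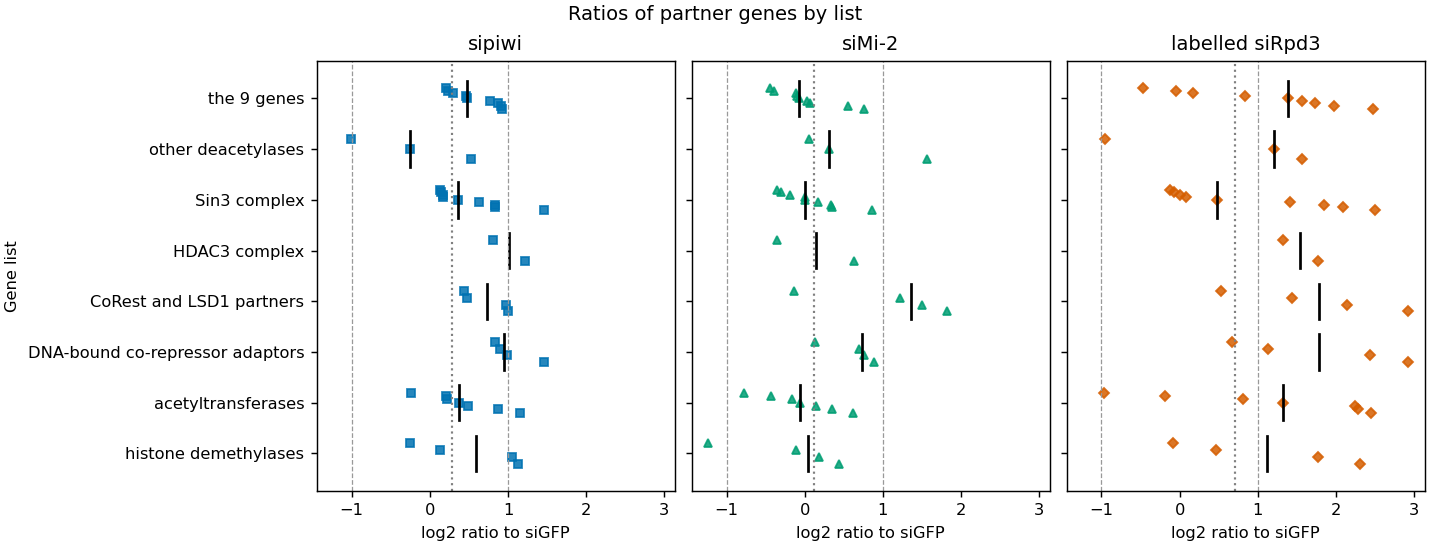
Ratios to siGFP (difference of log2(FPKM + 0.1)) of the 9 genes and of 33 partner genes in 7 lists. Panels show sipiwi, siMi-2 and the siRpd3-labelled library, whose Rpd3 RNA was not lower as deposited. Points are genes, black bars list medians, dotted lines the median of all genes tested and dashed lines 2-fold. In siMi-2 the partners of CoRest and Su(var)3-3 reach 1.82, whereas the 9 genes stay between -0.45 and 0.76.

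Sin3A had the highest mean of the 3 log2 ratios among the 9 genes (1.14) and HDAC3 the lowest (-0.12). Likeness to other genes was measured as the Euclidean distance over the 3 log2 ratios to siGFP, across 7812 other genes. Nearest to Sin3A were Sesn (distance 0.06), Snx21 (0.08) and Gcn2 (0.10), and 16 genes lay within 0.25. Nearest to HDAC3 were Mettl14 (0.07), SmE (0.09) and Mettl2 (0.09), with 122 genes within 0.25. More genes thus lay near HDAC3 than near Sin3A at this distance, a count that also depends on where a gene lies among the ratios of all genes. CG45100, annotated on the same RNA as HDAC3, was among the genes compared.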

How the data were processed

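Poly(A) RNA of OSCs was sequenced in 4 libraries, 1 per siRNA, whose groups come from their labels. The authors mapped the reads with bowtie2 2.2.4 at default parameters against the dm6 genome and the transcripts of genes and transposons, counted reads with BEDTools genomecov and calculated FPKM per transcript. The deposited FPKM table holds 35327 transcripts. RefSeq accessions matched 32988 of these, 82 matched by symbol and 79 by synonym, 47 kept the deposited symbol and 2131 without a symbol were left out. Transposon values were not used here.

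Since FPKM is no count, count models were not used. Mapped reads per library were recovered from 3585 intronless genes, between 97.3% and 97.7% of whose values above 0 then came out whole (within 0.001 read), and with them the length and reads of each transcript. Every transcript of the 9 genes matched an annotated length except 1 of Sin3A, for which the smallest length that gave whole reads was taken. Loci, exons and overlaps come from the Ensembl BDGP6 annotation, which has dm6 coordinates. Ratios used a pseudocount of 0.1 FPKM, a minimum mean of 1 FPKM per gene, and calls above 2-fold or below 0.5-fold. The functions were tested on simulated data.

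Named were the 9 genes, the targeted genes, the highest and lowest gene of each partner list in siMi-2 and in the siRpd3-labelled library, and the 3 genes nearest in pattern to the members with the highest and lowest mean ratio. HDAC11, chn, Caf1-55 and CG7379, and Fas3, aub and osk among the cell type markers, were described further after their values were seen. The members and lists were chosen with earlier results of these data known. Alternatives were other pseudocounts, minimum levels, thresholds and scalings, the main transcript in place of the sum, and ratios relative to genes of like length. HDAC3 counted with CG45100 was added after seeing the data. The software was Python 3.11.15 with scipy 1.17.1, pandas 2.3.3, numpy 2.4.6 and, for plots, matplotlib 3.10.9. No sequence of these genes was analysed here, and the marker nos was not analysed here.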

Additional observations from a re-analysis of the deposited data

How the results depend on the processing

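No paired analysis was possible because each condition has 1 library, and for the same reason no library could be left out. The limits are counting error alone behind every interval, a control shared by all comparisons and unequal library composition. A further limit is Rpd3 RNA that was not lower as deposited in the siRpd3-labelled library. Of 93 counts and medians over the 9 genes under an alternative, 74 stayed within 1.5 times the main count or within the counting interval and 19 did not. The main counts above 2-fold were 5 in the siRpd3-labelled library (41.3% of all genes) and 0 in sipiwi (11.4%) and siMi-2 (15.5%). Below 0.5-fold there were 0 in each, beside 7.07%, 2.59% and 3.49% of all genes in the same order. The main medians were 0.47 in sipiwi, -0.07 in siMi-2 and 1.38 under the siRpd3 label. Scaling to the median gene gave medians of 0.18, -0.19 and 0.67. In the siRpd3-labelled library 3 genes were then above (23.0% of all genes) and 1 below (21.7%). Scaling to RpL32 gave 4 genes above (all genes 31.9%) and a median of 0.93 in sipiwi, and 8 above (77.3%) and a median of 2.64 in the siRpd3-labelled library. Relative to the 200 genes nearest in length the medians were 0.15, -0.20 and -0.12. In the siRpd3-labelled library 0 genes were then above (17.9% of all genes), and HDAC4 turned to -0.45. With the main transcript 1 gene was above in sipiwi (10.7% of all genes). The 1.5-fold threshold put 4 genes above in sipiwi (29.9% of all genes), with 1 in siMi-2 (26.8%). At 4-fold 1 gene was above in the siRpd3-labelled library (16.4%). There a pseudocount of 1 FPKM gave a median of 1.24 and a minimum mean of 5 FPKM, which leaves out Su(var)3-3, one of 1.11. Without a minimum, with a pseudocount of 0.01 FPKM and with HDAC3 counted together with CG45100, no count or median left its range. For single genes, 72 of 165 values moved outside the counting interval and 92 did not. The 1 other, HDAC4 in the siRpd3-labelled library relative to length, turned sign from above 2-fold. Among values not called there, HDAC6 turned from 0.83 to -0.82 relative to length and Sirt2 from 0.18 to -0.53 with the median gene. Scaling to RpL32 turned HDAC3 from -0.47 to 0.79 and Sirt6 from -0.05 to 1.21. In sipiwi HDAC3, HDAC6 and Sirt1 turned under at least 1 alternative, as did HDAC6 and Sin3A in siMi-2. Apart from scalings and length, which shift every ratio of a library by construction, the cause was not tested.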
